A study of Mus musculus with 32 samples.

Results

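The comparison of 10 ng with 50 ng of input RNA took in 16 of the 32 libraries of the series. Its members were the 8 libraries that started from 10 ng of total RNA and the 8 that started from 50 ng, and they were set in 8 pairs by genotype and replicate number. The RNA came from the frontal cortex of 3-month-old mice, either wild-type (WT) C57BL/6 or homozygous GFAP-IL6, with 4 libraries of each genotype at each input. GFAP-IL6 mice carry an interleukin 6 (Il6) transgene under the Gfap promoter, which is active in astrocytes, and are used as a model of neuroinflammation. The RNA profiled was that of the whole tissue, in which fewer cells of a type and less RNA per cell cannot be told apart. The labels did not state that same-numbered libraries at the 2 inputs were made from the same RNA. Which libraries shared a pool was not stated either, so the input and the pool cannot be told apart in any difference given here. The question was which genes, and which classes of genes by expression level, length and function, made up a larger or smaller share of the library at 10 ng.

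3'Pool-seq reads the 3' ends of polyadenylated RNA. An indexed oligo-dT primer anneals to the poly(A) tail, reverse transcriptase copies the RNA and adds a handle by template switching, and samples are pooled before amplification and tagmentation. The amount of RNA per reaction sets how many molecules can be copied, and a molecule that is not captured in this step cannot be recovered by sequencing deeper. Short abundant transcripts in brain include those of cytosolic ribosomal proteins, which build the translating ribosome, and of the nuclear subunits of the respiratory chain. Mitochondria transcribe their own rRNAs, tRNAs and a small set of respiratory subunits from a circular genome, as long RNAs in which tRNAs separate the other products.

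Among the genes that passed the edgeR test (adjusted p under 0.05) and rose in all 8 pairs, the largest rise was that of a microRNA gene, mmu-mir-703. Its mature sequence is shown to identify the feature, in RefSeq letters with the seed (bases 2 to 8) in capitals, at chr5:98475616-98475636 on the minus strand of GRCm38.p6.
mmu-miR-703: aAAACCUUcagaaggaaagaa
The mature RNA has 21 bases, of which 12 are A. The counted feature was the 109-base hairpin gene (chromosome 5, 98475556 to 98475664), which lies inside Cfap299 on the opposite strand and overlaps none of its annotated exons. Whether the counting used the strand was not stated, so reads of the 2 genes cannot be told apart there. Oligo-dT priming does not measure mature microRNAs, and the source of the reads that aligned to the hairpin was not examined.

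Total counts ran from 1071895 to 7538356 at 50 ng and from 1064514 to 9840302 at 10 ng, with the larger total at 10 ng in 7 of 8 pairs. Values are given as CPM, the count as a share of the library's total, which in this 3'-end assay were not divided by gene length. A share of 3 counts came to between 0.305 and 2.82 CPM, depending on the library, and such floors cover counting error only. Il6 was above the WT range in every GFAP-IL6 library, at 0.717 to 8.40 CPM at 50 ng against at most 0.277 CPM in WT, and at 1.88 to 10.1 CPM at 10 ng against at most 0.758 CPM, although GFAP-IL6 replicate 2 had 2 counts at 10 ng. Gfap had 8.89 to 74.0 CPM at 50 ng (median 22.6) and 6.77 to 68.2 CPM at 10 ng (median 17.7), lower in 8 of 8 pairs and not called (log2 fold change -0.26, edgeR adjusted p = 0.51). Cortical neuron markers were present in every library (Tbr1, 78.0 to 145 CPM, and Gad1, 169 to 268 CPM). Of the striatal markers, Drd2 had no count in any of the 16 and Adora2a at most 0.939 CPM. Drd1 was present in every library, with a median of 6.63 CPM at 50 ng and 9.38 CPM at 10 ng. Ppp1r1b, of the striatal list, had 58.2 to 168 CPM at 50 ng and 71.6 to 147 CPM at 10 ng. Whether the samples held striatal tissue was not tested. The choroid plexus marker Ttr reached 3355 CPM in WT replicate 3 at 50 ng and 3003 CPM in WT replicate 3 at 10 ng, against 335 CPM or less in the other 14 libraries. Both libraries of GFAP-IL6 replicate 4 stood apart in the balance of long and short genes. With protein-coding genes in 5 equal classes by length, the median log2 level of the longest class minus that of the shortest was 0.49 there at 50 ng and -0.08 at 10 ng. GFAP-IL6 replicate 2 had -0.41 at 10 ng, and the other 13 libraries lay between -0.86 and -0.67. Results are therefore given with and without these 2 pairs where they rest on them.

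At 10 ng, 104 genes were higher and 51 were lower than at 50 ng (edgeR quasi-likelihood test with the pair as a block, Benjamini-Hochberg adjusted p under 0.05), which was 1.23% of the 12599 genes tested, 0.825% upward and 0.405% downward. The genes that rose were led by cytosolic ribosomal proteins and small subunits of the respiratory chain, and the genes that fell included 8 mitochondrial tRNAs. The changes were small, with log2 fold changes between 0.14 and 0.76 among the genes that rose and between -1.41 and -0.22 among those that fell. Tor3a and Pcdhb21 alone (0.0159% of genes tested), both lower at 10 ng, were past an absolute log2 fold change of 1, and the call of Pcdhb21 (-1.06, edgeR adjusted p = 0.0393) was lost when any of 6 pairs was left out. By CPM alone, 163 genes (1.29%) were higher at 10 ng in 8 of 8 pairs and 177 (1.4%) were lower. Without the pair in the fit, edgeR called 0 genes. Of the 12599 genes 549 had an unadjusted p under 0.05 there, a smaller share than the 0.05 expected with no difference. With the 2 pairs of GFAP-IL6 replicates 2 and 4 left out, 174 genes were higher and 115 lower, and 148 of the 155 genes were called again. Scaling by library totals alone moved the median of all genes to -0.03 and gave 85 higher and 72 lower. The genes nearest to the threshold were Timm10 inside it (log2 fold change -0.35) and Ap3d1 outside it (-0.30).

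**Figure D1:**
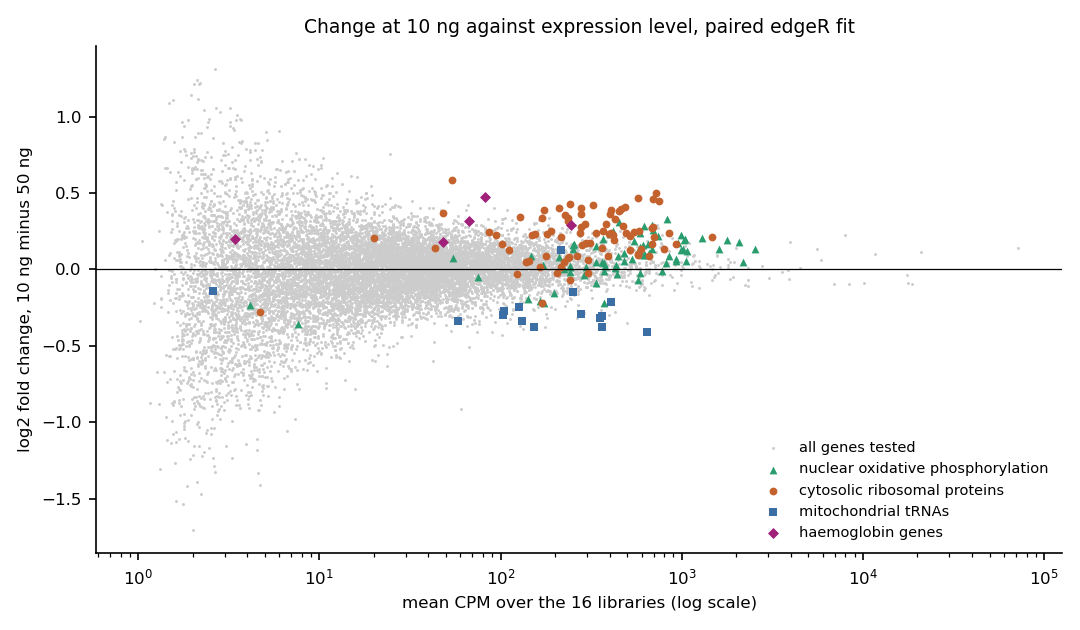
Log2 fold change at 10 ng minus 50 ng (y axis, paired edgeR fit) against the mean CPM over 16 libraries (x axis, log scale) for the 12599 genes tested. Cytosolic ribosomal proteins (circles) lie mostly above 0, with 77 of 83 on that side, and mitochondrial tRNAs (squares) lie mostly below 0, with 14 of 15 on that side.

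Of the 86 cytosolic ribosomal protein genes in the table, 83 were tested, 40 rose (48.2%) and 0 fell. Their median log2 fold change was 0.23, beside 0.00 over all genes tested. Summed over the genes, they took from 21780 to 30507 CPM at 50 ng (median 28715) and from 29033 to 34919 CPM at 10 ng (median 32479). The sum was higher at 10 ng in 8 of 8 pairs, although the ranges of the inputs overlapped. GFAP-IL6 replicate 4 had the lowest sum at 50 ng and the highest ratio, a log2 of 0.50 against 0.05 to 0.22 in the other pairs. Without GFAP-IL6 replicates 2 and 4 the list had 46 genes up and 1 down, with a median of 0.20. In a fit of all 32 libraries 4 of the 83 were called, and the same fit called 1 gene of nuclear oxidative phosphorylation, 1 mitochondrial tRNA and 0 haemoglobin genes. Both ribosomal subunits held genes that rose. Of the small subunit genes, 21 of 33 rose (median log2 fold change 0.25), and of the large subunit genes 19 of 48 did (0.22). Not every member lay above 0, and Rpl15, named after its values were seen, had a log2 fold change of -0.22, which did not pass the test (edgeR adjusted p = 0.273). At 1 and 0.5 ng the median sums were 34555 and 34136 CPM, given as levels only.

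Of the 3 most abundant members, Rps14 (log2 fold change 0.21) and Rpl13a (0.24) rose, and Rplp1 had 0.17, which did not pass (edgeR adjusted p = 0.101). Rps29, a small subunit protein (chromosome 12, 69157722 to 69159186, minus strand), ranged from 532 to 724 CPM at 50 ng (median 600.1) and from 713 to 974 CPM at 10 ng (median 851). All but 1 of the 10 ng libraries lay above every 50 ng library, and the log2 fold change was 0.50 ± 0.05 (SE; edgeR, adjusted p = 1.65e-08). Rpl37, of the large subunit (chromosome 15, 5116645 to 5119140), went from a median of 480.3 CPM (400.2 to 562) to 658 CPM (555 to 741), with a log2 fold change of 0.47 ± 0.05 (SE; edgeR, adjusted p = 1.14e-07). Rps27 (chromosome 3, 90212522 to 90213651, minus strand) went from a median of 592 CPM (465 to 690.1) to 808 CPM (686 to 906), a log2 fold change of 0.46. The groups did not overlap for Rpl36 (chromosome 17, 56613416 to 56614243), which had 185 to 233 CPM at 50 ng and 238 to 314 CPM at 10 ng, with a log2 fold change of 0.43 ± 0.06. Nor did they for Rplp2, a protein of the ribosomal stalk (chromosome 7, 141447370 to 141451585), with 392 to 454 CPM at 50 ng and 471 to 598 CPM at 10 ng. Rps21 and Rps3a1 completed the ribosomal proteins among the 10 largest rises, with log2 fold changes of 0.45 and 0.42. Rpl10a, named after its values were seen, had the largest rise among the tested family members (0.58 ± 0.11, adjusted p = 0.00135 by edgeR) and was higher in 7 of 8 pairs. Ribosomal protein genes have many processed copies in the genome, and how reads shared with such copies were counted was not examined here, so single members are uncertain.

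Nuclear genes of oxidative phosphorylation held fewer calls. Of the 75 tested, 15 rose and 1, Ndufb8 of complex I, fell, and the median log2 fold change was 0.09. Without GFAP-IL6 replicate 4 the median was 0.05, with 18 up and 4 down, and without GFAP-IL6 replicates 2 and 4 it was 0.06, with 23 up and 4 down. Their sum went from a median of 46606 CPM (30356 to 49874) at 50 ng to 49070 CPM (39308 to 52389) at 10 ng and was higher in 7 of 8 pairs, with GFAP-IL6 replicate 2 as the exception. The subunits that rose belonged mostly to complex IV, which passes electrons to oxygen, with 6 of 11 tested, and to ATP synthase, with 5 of 15. Complex I, the entry point for electrons from NADH, had 3 risen of 36, complex III 1 of 9 and complex II 0 of 4. Of the 3 most abundant members of the list Cox6a1 rose (0.18), while Cox4i1 (0.14) and Ndufa4 (0.05) did not pass. Further down, Atp5k had a log2 fold change of 0.33, Atp5e of 0.31, Cox7c of 0.29 and Ndufa3 of 0.26, and all 4 rose. Cox6a2, a complex IV subunit best known from heart and skeletal muscle (chromosome 7, 128205435 to 128206387, minus strand), was among the 10 largest rises, from a median of 43.6 CPM (30.1 to 55.4) to 57.8 CPM (46.0 to 76.0) and a log2 fold change of 0.44. It is not in the list of 75. Mitochondrial ribosomal proteins, which build the separate ribosome of the organelle, had 1 of 76 risen (Mrpl52, 0.39), with a median of 0.08 that was 0.03 without GFAP-IL6 replicates 2 and 4.

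**Figure D2:**
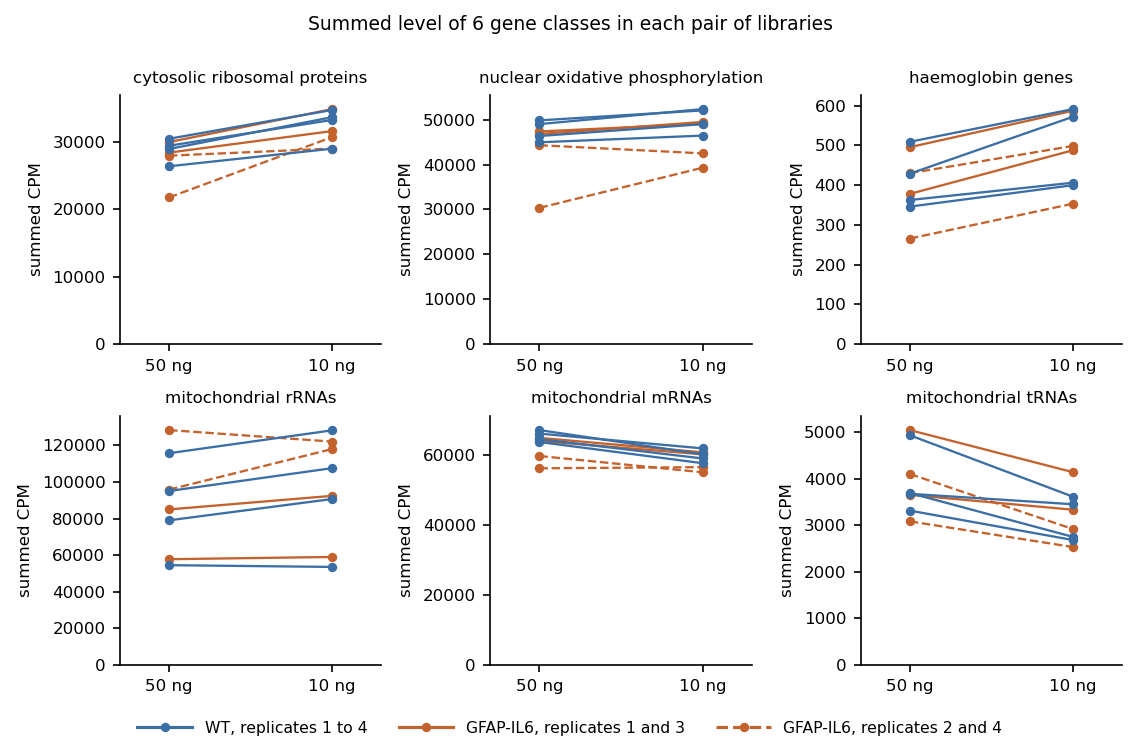
Summed CPM (y axes, from 0) of 6 gene classes at 50 and 10 ng, with a line for each of the 8 pairs; dashed lines are GFAP-IL6 replicates 2 and 4. Ribosomal protein and haemoglobin sums were higher at 10 ng in 8 of 8 pairs and mitochondrial tRNA sums lower in 8 of 8.

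The products of the mitochondrial genome moved apart. Of 22 mitochondrial tRNA genes, 15 were tested, 8 fell and 0 rose, and the median log2 fold change was -0.30. Their summed level was lower at 10 ng in 8 of 8 pairs, from a median of 3688 CPM (3087 to 5050) to 3129 CPM (2534 to 4144). These are counts after oligo-dT priming, and whether they came from mature tRNAs or from longer RNAs that hold them was not examined. mt-Tv, the tRNA for valine (mitochondrial genome, 1025 to 1093), which lies between the 2 rRNA genes, had 521 to 984 CPM at 50 ng (median 719) and 379 to 689 CPM at 10 ng (median 535). The ranges overlapped, and the log2 fold change was -0.41 ± 0.05 (SE; edgeR, adjusted p = 3.18e-06). mt-Tl2 and mt-Ta each had -0.38, and mt-Tw was the only tested tRNA above 0 (0.13, not called). The 13 mitochondrial mRNAs, of which 8 were tested, had a median of -0.09 and all 8 lay below 0, with mt-Nd3 alone called (-0.28 ± 0.07, adjusted p = 0.0312 by edgeR), a call that was lost when any of 6 pairs was left out. Their sum went from a median of 64247 to 59572 CPM and was lower in 7 of 8 pairs. Without GFAP-IL6 replicate 4, the pair in which it was not lower, 6 of the 8 were called lower. The fitted changes of the rRNAs were above 0, although their sum was higher at 10 ng in 6 of 8 pairs only and lower in WT replicate 3 and GFAP-IL6 replicate 4 (log2 ratios of -0.03 and -0.07). mt-Rnr2, the large rRNA (mitochondrial genome, 1094 to 2675), was higher at 10 ng (0.14 ± 0.03, adjusted p = 0.0075 by edgeR), with a mean of 74985 ± 22423 CPM (SD, n = 8) at 10 ng and 68690 ± 19826 CPM at 50 ng. mt-Rnr1, the small rRNA, had 0.11, which did not pass with all pairs (adjusted p = 0.166) and passed without GFAP-IL6 replicate 4 (0.15, adjusted p = 7.44e-06 by edgeR). As a share of all counts, the mitochondrial genome had a mean of 15.6% (12.4% to 18.9%) with 50 ng and 15.8% (11.6% to 18.8%) with 10 ng, and no difference was detected (exact sign-flip test over 8 pairs, two-sided, p = 0.555). At lower inputs the median tRNA sum was 4367 CPM at 1 ng and 4666 CPM at 0.5 ng, above that at 50 ng. The mitochondrial lists by RNA type were formed after the values were seen.

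Other rises came from small groups. The 5 haemoglobin genes, which mark blood in the tissue, had a median log2 fold change of 0.29, with Hba-a1 and Hbb-bs called. Hba-a1 (chromosome 11, 32283511 to 32284465) went from a median of 77.0 CPM (42.8 to 89.3) to 101 CPM (61.5 to 114), higher in 8 of 8 pairs (0.47 ± 0.08, adjusted p = 0.000478 by edgeR). The adjoining alpha and beta globin copies are near-identical, so the share of each is uncertain. Of 18 tested genes of tubulin, actin and actin-binding proteins, a list drawn up after the values were seen, 4 rose: Tuba1a, Tuba1b, Pfn1 and Tmsb4x, at 0.29, 0.29, 0.29 and 0.18. mmu-mir-703 had 14.4 to 24.7 CPM at 50 ng and 25.8 to 35.7 CPM at 10 ng, with no overlap (0.76 ± 0.13, adjusted p = 0.000757 by edgeR).

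Among the falls, Tor3a, which encodes a torsin ATPase of the endoplasmic reticulum (chromosome 1, 156653617 to 156674356, minus strand), had a median of 6.07 CPM (2.26 to 12.2) at 50 ng and 1.69 CPM (0.984 to 6.58) at 10 ng. Its level was close to the floor of the shallower libraries, and its log2 fold change was -1.41 ± 0.34 (SE; edgeR, adjusted p = 0.0194), a call that was lost when any of 4 pairs was left out (WT replicates 1, 3 and 4 and GFAP-IL6 replicate 1). Gm8797, annotated as a pseudogene in RefSeq (chromosome 3, 5750806 to 5751295), had a median of 85.9 CPM (28.3 to 116) at 50 ng and 39.8 CPM (27.9 to 48.6) at 10 ng, lower in 8 of 8 pairs although by 0.02 on the log2 scale in GFAP-IL6 replicate 4. A pseudogene can share reads with the gene it was copied from, so its value is uncertain. Polr1a, the largest subunit of RNA polymerase I (chromosome 6, 71909053 to 71984935), had a median of 13.2 CPM (9.91 to 21.5) and 7.43 CPM (4.52 to 13.3), a log2 fold change of -0.78. The remaining 6 of the 10 largest falls had log2 fold changes between -0.60 and -0.39. They were Rps6ka4, a stress-activated protein kinase, Dagla, which makes the endocannabinoid 2-arachidonoylglycerol, Elovl5, a fatty acid elongase, Trappc6b of the vesicle-tethering TRAPP complex, Id4, a helix-loop-helix inhibitor, and Vbp1, a subunit of the prefoldin chaperone. Their calls depended on single pairs for Dagla, whose call was lost whichever of the 8 pairs was left out, for Rps6ka4 (6 of 8) and for Elovl5 and Id4 (2 of 8 each), and that of Polr1a was lost in 5 of 8.

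**Figure D3:**
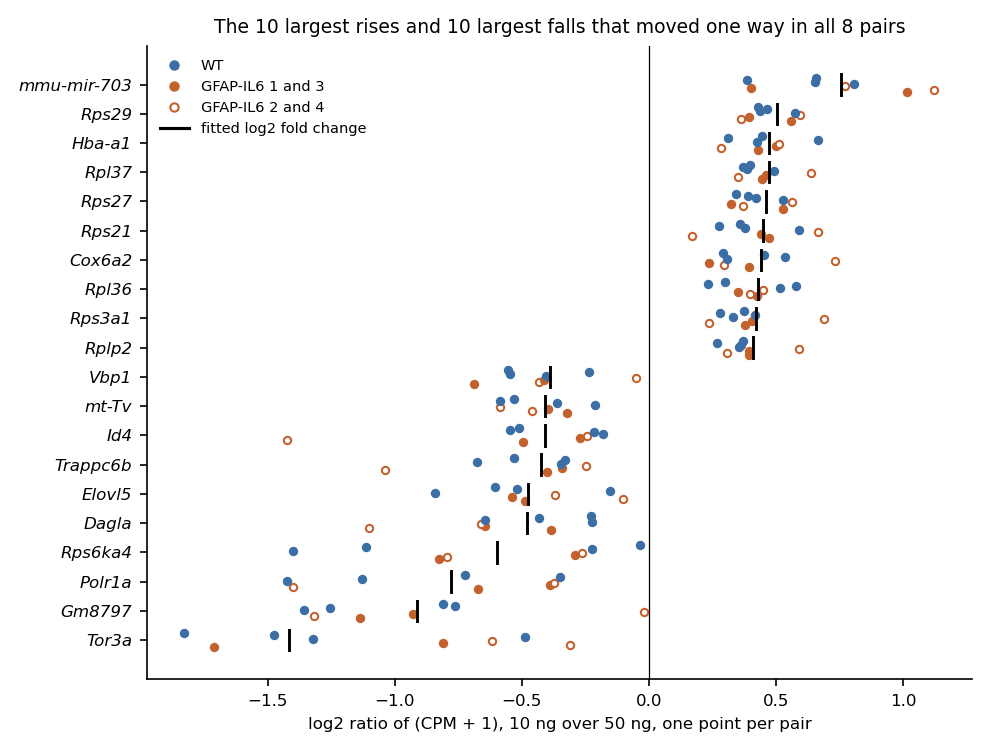
Log2 ratio of CPM + 1 at 10 ng over 50 ng (x axis) in each of the 8 pairs for the 10 genes with the largest rises and the 10 with the largest falls among those called that moved the same way in all pairs; black bars are fitted values. Points lie close together for Rps29 (fitted 0.50) and mt-Tv (-0.41), which had high counts, and are more scattered for Tor3a (-1.41), which had few.

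Most function lists held few called genes. Over all genes tested 1.23% were called, so a short list with no call was not set apart from other genes. None of 284 tested zinc finger genes named Zfp was called, and their median log2 fold change was -0.04. Synaptic vesicle genes had 0 of 29 called (median -0.02), although their summed level was lower in all 8 pairs, with a mean log2 ratio of -0.03. No gene was called among 87 voltage-gated and potassium channels, 17 of GABA signalling, 16 of interneurons, 13 of excitatory neurons, 19 of microglia, 37 of the proteasome, 21 chaperones, 21 of cholesterol synthesis and 16 immediate early genes. Their medians lay between -0.05 and 0.07. Likewise 0 were called among 10 reactive astrocyte genes (-0.05), 10 of oligodendrocyte progenitors (-0.19), 14 of endothelium, 8 of mural cells, 7 of striatum and 11 abundant long noncoding RNAs, and the 1 spliceosomal or 7S RNA tested was not called. A single gene rose in the lists of homeostatic astrocytes (S100b, 0.24), myelin (Mal, 0.27), translation factors (Eef1g, 0.31) and replication-dependent histones (Hist1h4d, 0.39). Of 34 genes of glutamate receptors and the postsynaptic density, Gria2 rose (0.20) and Grm3 fell (-0.35). Of 3 choroid plexus genes Ttr, which encodes the thyroxine carrier of cerebrospinal fluid, fell (-0.35 ± 0.07, adjusted p = 0.00374 by edgeR), in 8 of 8 pairs, by 0.16 on the log2 scale in the WT replicate 3 pair where it was most abundant. The list of 15 mitochondrially encoded mRNAs and rRNAs had 10 tested, 1 higher and 1 lower.

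By length, the genes that rose lay at the short end. The median length, as the table gives it, was 866 bases for the genes that rose, 2384 for those that fell and 3246 for all tested, and 56.7% of the genes that rose were under 1000 bases, against 5.91% of all tested. The genes that rose were also more abundant, with a median of 344 CPM against 21.9 CPM for all tested, so length and level are mixed in this comparison. Of 5 equal classes of protein-coding genes with a mean of at least 10 CPM, the shortest (341 to 1789 bases) had 83 of 1715 risen and the longest (5680 to 41324 bases) had 3 of 1716. The genes that fell were spread more evenly, with 10, 10, 9, 7 and 3 from the shortest class to the longest, and 8 of the 13 fallen genes under 1000 bases were mitochondrial tRNAs. Ribosomal proteins were many of the short genes that rose. Outside the lists of cytosolic and mitochondrial ribosomal proteins and of oxidative phosphorylation, 15 of 470 tested genes under 1000 bases rose (3.19%), with a median log2 fold change of 0.09, against 31 of 11381 longer genes (0.272%), with a median of -0.01. In the same sets 4 of the short and 36 of the longer genes fell. Within the family, 31 of 55 ribosomal protein genes under 1000 bases rose (median 0.24) and 9 of 28 longer ones did (0.14). At the same level, 100 to 1000 CPM, 38 of 75 ribosomal protein genes rose, against 11 of 136 other genes under 1000 bases and 23 of 1435 other genes of 1000 bases or more.

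The contrast of the longest with the shortest class changed little between the inputs and in opposite ways in the pairs that stood apart. The median log2 ratio of the longest class minus that of the shortest was -0.06 ± 0.23 over 8 pairs (SD; exact sign-flip test, two-sided, p = 0.508). It was 0.28 in GFAP-IL6 replicate 2 and -0.56 in GFAP-IL6 replicate 4. In each of the other 6 pairs it was below 0, with a mean of -0.03 ± 0.02 and p = 0.0312, the smallest the exact sign-flip test can give with 6 pairs. The 2 pairs were set apart by this same balance of long and short genes, so the p over 6 pairs is a description and not an independent test. The contrast by 3' untranslated region (UTR) length was -0.05 ± 0.18 (p = 0.516, same exact test), by GC content of the transcript 0.00 ± 0.05 (p = 0.922) and by the longest run of A inside the transcript 0.00 ± 0.12 (p = 0.977), where genes with 10 or more A in a row were set against those with at most 6. None passed after adjustment over the 10 class comparisons (adjusted p of at least 0.391, exact sign-flip tests). When level, length, 3' UTR length, GC content and A runs entered 1 regression over 8577 genes for each pair, 4 coefficients had the same sign in at least 7 of 8 pairs. That of length was below 0 in 7 of 8 and did not pass (-0.015 per SD; exact sign-flip test, p = 0.508). The log2 ratio rose with expression level by 0.015 per SD of log2 CPM (8 of 8 pairs; exact sign-flip test, p = 0.00781, the smallest possible), fell by 0.011 per SD of 3' UTR length (7 of 8; p = 0.0156, exact) and rose by 0.012 per SD of A-run length (7 of 8; p = 0.0156, exact). Each of these 3 had an adjusted p of 0.026 over the 5 coefficients (exact sign-flip tests), and the coefficients of 3' UTR and A-run length had 0.0781 when set among the 10 class comparisons. Without ribosomal protein and oxidative phosphorylation genes the level coefficient was 0.011 (above 0 in 8 of 8 pairs), that of A-run length 0.011 (7 of 8) and that of 3' UTR length -0.0088, with 2 pairs above 0 (exact sign-flip test, unadjusted p = 0.0469). Without GFAP-IL6 replicates 2 and 4 the 3' UTR coefficient was -0.0078, below 0 in 5 of 6 pairs (exact sign-flip test, p = 0.0625). 

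**Figure D4:**
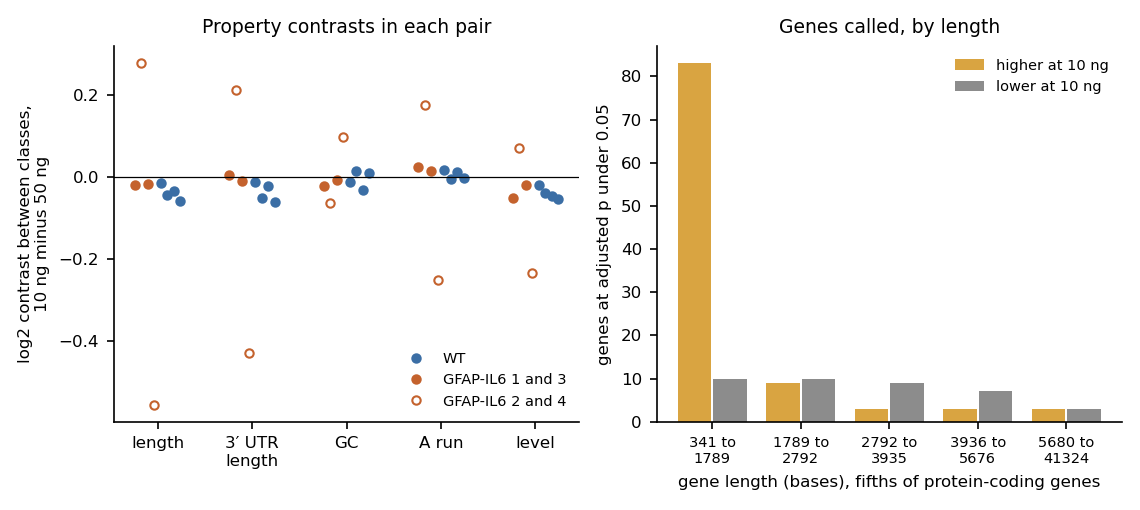
Left, difference at 10 minus 50 ng (y axis, log2) of 5 contrasts between gene classes in each pair; open circles, GFAP-IL6 replicates 2 (0.28 for length) and 4 (-0.56), lie away from the other 6 pairs. Right, genes called higher and lower (y axis) in 5 equal classes of protein-coding genes by length (x axis, bases), with 83 of the higher calls in the shortest class.

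By expression level, fewer weakly expressed genes were seen at 10 ng. Calls lay mostly among abundant nuclear genes. By mean CPM over the 16 libraries, 83 of 1730 tested genes at 100 to 1000 CPM rose and 20 fell, and 10 of 64 at 1000 CPM or more rose. At 10 to 100 CPM 10 of 6917 rose and 20 fell, and at 1 to 10 CPM 0 of 3863 rose and 2 fell. Small changes are harder to call at low counts. The summed CPM of genes at 1 to 10 CPM against those at 100 to 1000 CPM changed by a log2 ratio of -0.05 ± 0.09 (SD, n = 8 pairs; exact sign-flip test, two-sided, p = 0.133). There were 7 pairs below 0 and GFAP-IL6 replicate 2 was at 0.07. Without GFAP-IL6 replicates 2 and 4 the mean was -0.04 ± 0.02 (p = 0.0312, exact sign-flip test, the smallest possible with 6 pairs). Those 6 pairs were chosen after the libraries were seen, so this p is a description. When each pair was brought to the same depth, the lower of its 2 totals, by the expected number of genes in a random draw of counts, 14852 ± 824 genes had at least 1 count at 10 ng and 15560 ± 930 at 50 ng (SD, n = 8). The number was lower at 10 ng in 8 of 8 pairs, by 444 to 921 genes (exact sign-flip test, two-sided, p = 0.00781, the smallest possible). Between groups without the pairing the same difference was within the spread of libraries (exact permutation test, p = 0.130). The smallest loss was in WT replicate 2 and the largest in WT replicate 4, the pair with the largest total at 50 ng.

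Genes were next classed by their level in the 16 libraries made from 1 and 0.5 ng, which took no part in the comparison. Genes with no count in those libraries were in no class. Of the 790 genes under 0.1 CPM, 36.3% were detected at 50 ng and 27.8% at 10 ng, and of genes at 0.1 to 1 CPM 62.1% and 52.6%. At 1 to 10 CPM the shares were 94.6% and 91.3%, and above 10 CPM nearly all genes were detected at both inputs. In each of the 3 lower classes fewer genes were detected at 10 ng in 8 of 8 pairs. The genes under 0.1 CPM had a smaller sum at 10 ng in every pair (mean log2 ratio -0.15 ± 0.06, SD), while for genes at 0.1 to 1 CPM it was -0.06 ± 0.07. Classed by the 10 and 50 ng libraries instead, 2823 genes lay under 0.1 CPM. Of them 13.7% were detected at 50 ng and 7.97% at 10 ng. Genes with exactly 1 count at equal depth numbered 825 ± 150 at 10 ng and 1139 ± 109 at 50 ng (SD, n = 8), a measure added after the data were seen. They were fewer at 10 ng in 8 of 8 pairs, by 242 to 415 genes (exact sign-flip test, p = 0.00781).

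**Figure D5:**
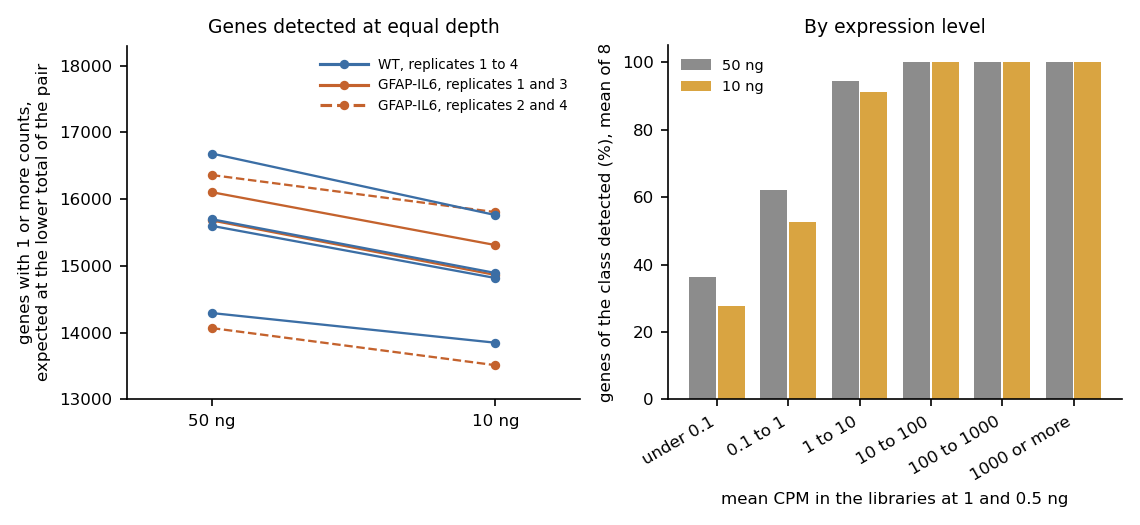
Left, genes with at least 1 count (y axis, expected at the lower total of the pair, not starting at 0) at 50 and 10 ng, with a line for each pair; all 8 lines fall, by 444 to 921 genes. Right, mean share of genes detected (y axis, %) by level in the libraries at 1 and 0.5 ng (x axis, CPM), from 36.3% against 27.8% under 0.1 CPM to 100% at 100 CPM and above. Genes with no count at 1 and 0.5 ng are left out.

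By gene type, the mean share of nuclear protein-coding genes was 81.0% with 50 ng and 81.1% with 10 ng. That of long noncoding RNAs was 3.36% (2.12% to 6.59%) with 50 ng and 3.02% (2.07% to 4.67%) with 10 ng, lower at 10 ng in 7 of 8 pairs, with a mean log2 ratio of -0.12 ± 0.17 (exact sign-flip test, p = 0.0391, adjusted p = 0.391 over the 10 class comparisons). GFAP-IL6 replicate 4, with 6.59% at 50 ng and 4.67% at 10 ng, had the largest fall, and without GFAP-IL6 replicates 2 and 4 the mean was -0.10 ± 0.04, below 0 in all 6 pairs. Small noncoding RNAs (mean share 0.029% with 50 ng) and pseudogenes (0.0148%) had mean log2 ratios of 0.03 ± 0.13 and 0.05 ± 0.20 (p = 0.5 and p = 0.516, same exact test).

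The effect of the input did not pass a test for a difference between the genotypes in any gene. With a genotype by input interaction, edgeR called 0 of 12599 genes. An unadjusted p under 0.05 was found by edgeR for 370, a smaller share than the 0.05 expected with no difference. Both limma voom and DESeq2 also called 0. Likewise, no class comparison passed a test between the 4 WT and the 4 GFAP-IL6 pairs (two-sided exact permutation tests, p of at least 0.600). With 4 pairs against 4 the smallest p such a test can give is 0.0286.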

How the data were processed

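Frontal cortex libraries at 10 and 50 ng were analysed, 16 of 32, and grouped by the genotype and input in the sample labels. The authors trimmed poly(A), aligned single-end reads to mm10 with STAR 2.4 and counted reads per GENCODE vM6 gene with featureCounts, and the deposited counts are whole numbers for 33000 genes, not normalized. The pool of each library was not given in the sources used here. Counts were tested with edgeR 4.0.16 (TMM, filterByExpr, quasi-likelihood, pair as block), with adjusted p under 0.05. Class values used log2(CPM + 1), exact sign-flip tests over 8 pairs and Benjamini-Hochberg adjustment over 10 comparisons. 3' UTRs, GC content and A runs (the last 50 bases left out) and gene coordinates came from GENCODE vM21 on GRCm38, the first 3 matched for 97.2% of protein-coding genes. The members and gene lists were chosen with earlier results of these data known. Named genes were the 10 largest rises and falls among called genes moving the same way in 8 of 8 pairs, Il6, Gfap and leading list members; others were chosen after their values were seen. In 24 pairs of replicate libraries the lowest chi-square per degree of freedom was 2.15, so each counted as 1 replicate. Alternatives were DESeq2 1.42.0 size factors and test, limma 3.58.1, library totals, no filter, all 32 libraries, no block and leaving out pairs. The fits were tested on simulated data.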

Additional observations from a re-analysis of the deposited data

Results flagged for a closer look

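Of 51 values examined over the 8 pairs, 16 had a pair far from the other 7. Chance gives about 1 in 20 for a single value, but these values share pairs and genes and are not independent. In 15 of the 16 the pair was GFAP-IL6 replicate 4. In that pair the contrast by expression level was -0.23, by gene length -0.56, by 3' UTR length -0.43 and by A run -0.25, and the log2 ratio of the long noncoding share was -0.50. Its log2 ratio of summed CPM was 0.50 for cytosolic ribosomal proteins, 0.37 for nuclear oxidative phosphorylation, 0.39 for mitochondrial ribosomal proteins (-0.12 to 0.03 elsewhere), 0.32 for tubulin and actin genes, 0.0085 for mitochondrial mRNAs and -0.10 for synaptic vesicle genes. For single genes it was 0.69 for Rps3a1, 0.59 for Rplp2, -0.018 for Gm8797 and -1.03 for Ttr. GFAP-IL6 replicate 2 stood apart for Id4, at -1.42 against -0.55 to -0.18 in the other pairs. GFAP-IL6 replicate 4 also had the largest ratio of totals, 1.76 times as many counts at 10 ng as at 50 ng, and its part in these values was not tested.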

How the results depend on the processing

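The number of genes called depended on the fit. Against 155 (104 higher, 51 lower), DESeq2's test called 239 (175 higher) and limma voom 247 (165 higher, 82 lower), while the fit of all 32 libraries with the replicate block called 6 (5 higher, 1 lower) and the fit with no replicate block called 0, 0 of them higher and 0 lower. Leaving out a pair gave 91 to 247 genes (69 to 138 higher, 22 to 109 lower), with 95 without WT replicate 1 (22 lower), 26 lower without WT replicate 2, 30 without WT replicate 3 and 27 without GFAP-IL6 replicate 1, 91 without WT replicate 4 and 247 without GFAP-IL6 replicate 4; with both GFAP-IL6 replicates 2 and 4 left out, 289 were called (174 higher, 115 lower). The replicate numbers were checked by correlating deviations from group means over 5179 genes. Same-numbered libraries correlated at 0.07 to 0.80, with 7 of 8 above 0.1 and GFAP-IL6 replicate 2 at 0.07. Other-numbered libraries of the same genotype ran from -0.62 to 0.32. WT replicate 1 (0.29) and WT replicate 2 (0.26) lay within that range, as did GFAP-IL6 replicate 2. At each input 7 of 8 libraries correlated best with their own number, so the pairing is a hint from the data and not stated by the design. Without the pairing the fall in genes detected at equal depth (-709) had p = 0.130 (exact permutation test). The interaction stayed at 0 genes under every setting run.

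Contrasts near 0 changed sign. The GC contrast became 0.00271 without WT replicate 3, 0.00126 without GFAP-IL6 replicate 1, 0.0071 without GFAP-IL6 replicate 2, 0.0068 at a mean of at least 30 CPM and 0.015 for summed CPM, and over single left-out pairs ran from -0.016 to 0.0071. The A-run contrast became 0.011 without GFAP-IL6 replicates 2 and 4, 0.0073 with no replicate block and 0.0066 without ribosomal protein and oxidative phosphorylation genes (-0.026 to 0.034 over single left-out pairs). In the joint regression the A-run coefficient, a slope per SD and not the contrast between classes, was 0.012. Without GFAP-IL6 replicate 4 the length contrast became 0.014 (-0.106 to 0.014 over single left-out pairs), the 3' UTR contrast 0.0091 (-0.083 to 0.0091), the A-run contrast 0.034 and the protein-coding share -0.0050 (-0.0050 to 0.0073). The mitochondrial share ran from -0.0013, without GFAP-IL6 replicate 2, to 0.033, and the pseudogene share from -0.00065, without WT replicate 3, to 0.087. Of these only the A-run coefficient of the joint regression passed a test (adjusted p = 0.026 over its 5 coefficients and 0.0781 over the 10 class comparisons, exact sign-flip test), and the causes were not tested. The medians of 11 lists moved by less than the spread between pairs in all 176 refits, although the calls within lists were fewer in the fit of all 32 libraries (4 ribosomal proteins against 40). That spread was wide beside some medians, such as an SD of 0.12 against 0.09 for nuclear oxidative phosphorylation. The synaptic vesicle median ran from -0.040 to 0.0053 over single left-out pairs, so the comparison does not show that small medians held. Values under about 3 CPM are limited by depth in the shallower libraries.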

Other observations

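Subunits of dynein, the motor that carries cargo along microtubules towards the cell body, and of dynactin, its activator, moved in both directions. Of 15 tested, Dctn6 (-0.37), Dync1li1 (-0.36) and Dync1i1 (-0.29) fell and Dynlrb1 (0.22) rose at 10 ng, with a median log2 fold change of -0.04. The 3 that fell were lower in 8 of 8 pairs. The chains of ferritin, the iron store, also parted, with Fth1 higher (log2 fold change 0.22) and Ftl1 lower (-0.34) at 10 ng. Both groups were chosen after their values were seen. Libraries of the same genotype and number at the 2 inputs had Pearson correlations of log2(CPM + 1) of 0.923 to 0.982 over 13478 genes, beside 0.925 to 0.981 among replicates at 50 ng and 0.926 to 0.967 at 10 ng, values that share libraries and are given as a description.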
